A study of Mus musculus with 6 samples.

Results

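The genes described here are 35 genes of macrophages and other leukocytes, taken as a list by symbol and measured in branchial arch 1 dissected from day 11.5 mouse embryos. All 35 had at least 1 probe set annotated with that symbol alone, out of 18194 genes so measured, and where a gene had several, the one brightest on average was used. This arch forms the jaws and consists mostly of neural crest mesenchyme, with an epithelial cover, vessels, muscle precursors and the blood and macrophages that those vessels bring in. The samples were 3 arches of the genotype Ezh2lox/lox (labelled control) and 3 of the genotype Wnt1Cre Ezh2lox/lox (labelled mutant), with 1 arch taken from each embryo per the labels, so that both groups carried floxed Ezh2 alleles. Whether arches of several embryos were pooled on an array is not given in the sources used here. Ezh2 encodes the histone methyltransferase of Polycomb repressive complex 2, and per the series description the Wnt1-driven Cre was used to ablate it in the neural crest lineage. Arrays are called control 1 to 3 and mutant 1 to 3 below, by the replicate numbers of the labels, and every difference is mutant minus control on the log2 scale of the deposited signals.

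Macrophages of the early embryo arise from yolk sac progenitors, reach tissues through the blood and renew locally, and neither they nor other leukocytes are neural crest derivatives. They depend on the receptor Csf1r and the transcription factor PU.1 (gene Spi1), engulf dying cells through scavenger and complement receptors, and signal through immune receptors that share the adaptors Tyrobp and Fcer1g. In a whole arch their RNA is mixed with that of all other cells, so that fewer macrophages and less macrophage RNA per cell cannot be told apart.

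Facts of the whole series bear on every value. All arrays shared a median log2 signal of 5.81 and a 25th percentile of 4.33 (the rounded 4.325), so the authors had brought them to 1 distribution. Ezh2 itself read 11.63 ± 0.15 (SD, n = 3) in control and 11.66 ± 0.01 (n = 3) in mutant arches, a difference of 0.03 that did not pass (limma, Benjamini-Hochberg adjusted p = 0.906); where its probes lie relative to the deleted part was not determined here, so it checks no label. The X-inactivation RNA Xist read 5.45 to 5.75 in control and 12.92 to 13.10 in mutant arches, and the Y-linked Kdm5d 9.10 to 9.22 against 2.84 to 3.10. Embryo sex and genotype label therefore cannot be told apart for any gene below. Of the 35 genes, Cybb is itself X-linked. Hoxa9 and Hoxa10, homeobox genes of the trunk that Polycomb keeps silent in the jaw arch, read 10.86 to 11.57 and 10.3 to 10.74 in control arches and 3.82 to 4.51 and 3.78 to 3.905 in mutant arches, the reverse of what loss of Ezh2 is known to do. The words control and mutant therefore stand for the labels alone, and the direction of every difference rests on them. The mesenchymal genes Twist1 and Prrx1 lay at 11.1 to 11.52 and 12.23 to 12.64 on all arrays, above the 75th percentile of 8.17. Alx4, of the same list of mesenchymal genes, lay at 4.94 to 5.17, below the median of 5.81. These levels show mesenchymal RNA on every array but do not check which arch or tissue was taken. Of the 35 leukocyte genes, 32 lay above the 25th percentile on every array.

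As a group the leukocyte genes read a little lower in the mutant arches, but few passed the test gene by gene, and 1 control arch set much of the shift. Of the 35 genes 31 had a lower mean in the mutant arches, where 44.7% of all genes did. That count rests on the brightest probe set of each gene. Of all 56 probe sets of these genes, 41 were lower and 15 higher in the mutant arches. Signs differed between probe sets for 11 of the 12 genes with more than 1. Over the 35 genes the median difference was -0.20, against 0.02 over all genes, and single differences ran from -0.87 for Mrc1 to 0.13 for Timd4. With a Benjamini-Hochberg adjusted p of 0.05 in limma, 2 genes fell (Cd14 and Ptprc), 0 rose and 33 did not pass. Thus 5.71% of the list was called, against 5.53% of all genes (4.30% lower, 1.23% higher), a share near the background. At an unadjusted p of 0.05, 10 of the 35 were lower and 0 higher, against 10.2% of all genes that were lower at that level. The 3 mutant arches all read below the 3 control arches for 10 genes, 28.6% of the list, where 11.9% of all genes had groups that did not overlap in that direction. Spi1 was the 1 gene separated in the opposite direction, which makes 11 separated genes, against 24.9% of all genes.

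**Figure D1:**
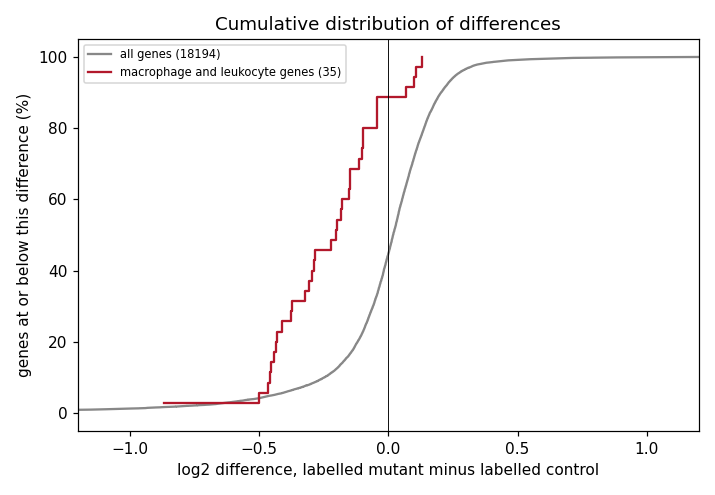
Cumulative share of genes (vertical axis, percent) at or below a given log2 difference between mutant and control arches (horizontal axis, from -1.2 to 1.2), for the 35 macrophage and leukocyte genes and for all 18194 genes. The curve of the leukocyte genes lies to the left of the other over most of its range, with medians of -0.20 and 0.02, and ends at 0.13.

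Control arch 3 stood apart in these genes. It was the highest of the 6 arrays for 24 of the 35, or 68.6%, whereas it was the highest for 24.8% of all genes. Averaged over the 35 genes, its signal lay 0.37 above the mean of the 6 arrays, while control arches 1 and 2 lay at -0.04 and 0.02, mutant arch 1 at 0.04, and mutant arches 2 and 3 at -0.21 and -0.19. Control arches 1 and 2 and mutant arch 1 thus lay close together, with control arch 3 above them and mutant arches 2 and 3 below. Over all 18194 genes the same deviations ran from -0.02 to 0.04. The lowest reading fell in mutant arch 2 for 15 genes, in mutant arch 3 for 9 and in control arch 1 for 6.

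Without control arch 3 the median difference was -0.13, and 23 of the 35 genes read lower in the mutant arches, where 42.5% of all genes did. Then 0 of the 35 passed in limma, with 8 at an unadjusted p of 0.05, while 4.82% of all genes passed. The sign turned for 8 genes: Tyrobp, Lyz2, Coro1a, Csf2rb, C1qc, Fcer1g, Cd68 and Cybb. Without control arch 1, in contrast, the median difference was -0.34. Leaving out any other single arch gave medians between -0.30 and -0.16, and 28 to 31 genes lower. The loss of all calls was not particular to control arch 3. Limma also called 0 of the 35 without mutant arch 2 or mutant arch 3. It called 1 without control arch 1 or control arch 2, and 2 without mutant arch 1.

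**Figure D2:**
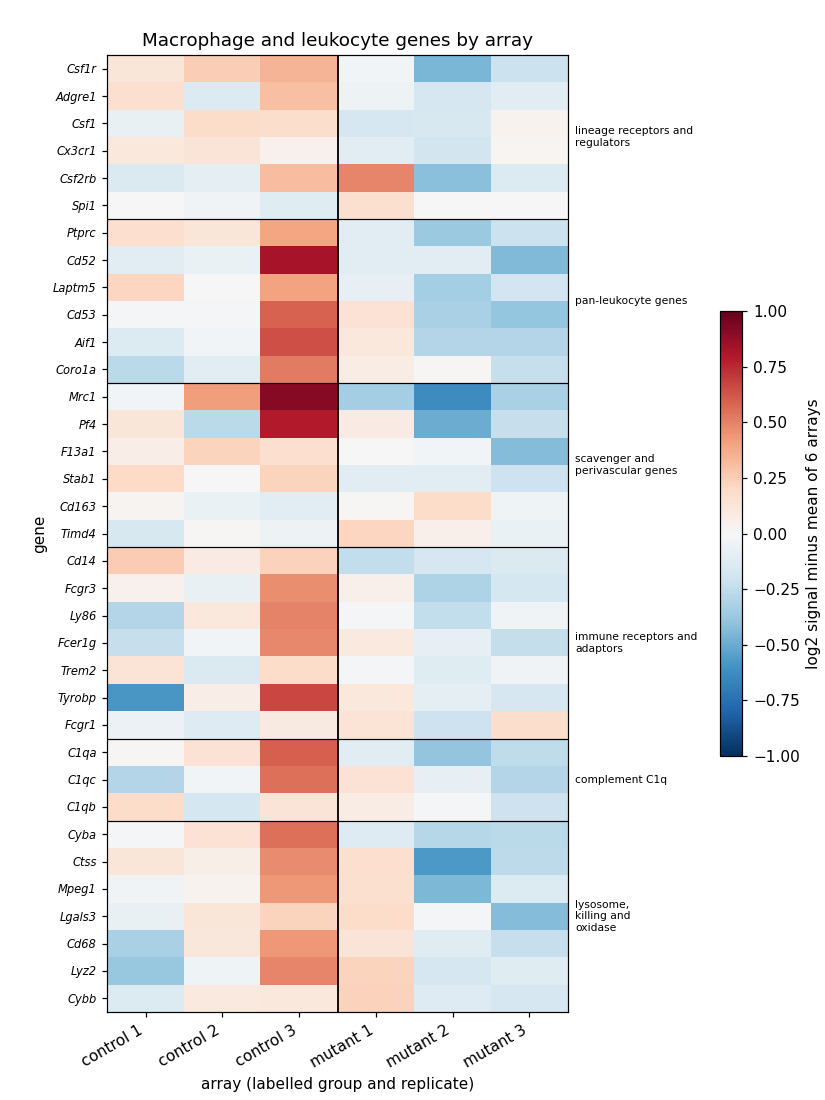
Log2 signal of each of the 35 genes (rows, grouped by role) on each of the 6 arrays (columns), as the deviation from the gene's own mean over the 6 arrays, with red above and blue below it. The column of control 3 is red for most genes, mutant 2 and mutant 3 are mostly blue, and control 1, control 2 and mutant 1 are mixed.

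The letters in front of these genes can be read where RefSeq lists a promoter. Of the 35 genes, 27 had an entry in the RefSeq promoter table of GRCm38.p6. PU.1 recognises purine-rich ETS sites built around GGAA, and the 6 letters GAGGAA, or TTCCTC on the opposite strand, were searched in the 250 bases before the first start listed for each gene. They occurred in 15 of the 27, or 55.6%, against 23.1% of all 27025 genes of the table. Other ETS factors recognise the same core, no other motif was searched, and a match is only a match of letters. The 3 promoters below are shown because they belong to the genes of the table whose groups did not overlap and whose moderated t was largest. They are those of Ptprc (chr1:138175306-138175555 on the minus strand), Mrc1 (chr2:14229164-14229413 on the plus strand) and Laptm5 (chr4:130913066-130913315 on the plus strand), all GRCm38.p6, written 5′ to 3′ along the gene with the motif in capitals.
Ptprc: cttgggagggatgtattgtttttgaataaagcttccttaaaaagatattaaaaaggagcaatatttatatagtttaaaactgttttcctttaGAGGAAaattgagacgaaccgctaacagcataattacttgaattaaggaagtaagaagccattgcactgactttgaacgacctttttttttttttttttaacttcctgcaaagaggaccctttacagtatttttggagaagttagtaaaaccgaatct
Mrc1: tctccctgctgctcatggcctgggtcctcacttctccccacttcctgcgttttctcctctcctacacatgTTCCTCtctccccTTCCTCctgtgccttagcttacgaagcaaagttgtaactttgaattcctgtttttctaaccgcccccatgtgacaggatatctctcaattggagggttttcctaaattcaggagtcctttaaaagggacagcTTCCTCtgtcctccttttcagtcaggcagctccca
Laptm5: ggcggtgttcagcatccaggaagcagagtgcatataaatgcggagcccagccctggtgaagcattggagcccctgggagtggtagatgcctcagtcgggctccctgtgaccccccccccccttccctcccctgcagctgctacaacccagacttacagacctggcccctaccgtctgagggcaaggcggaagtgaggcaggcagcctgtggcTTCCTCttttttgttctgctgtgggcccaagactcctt
Mrc1 held 3 matches, the nearest of which begins 35 bases before the start, and Laptm5 and Ptprc held 1 each, at 38 and 158 bases.

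None of the 6 receptors, ligands and regulators of the lineage passed in limma, with 1 (Csf1r) at an unadjusted p of 0.05. Csf1r, the receptor for the survival factors Csf1 and Il34, read 9.26, 9.38 and 9.48 in control arches 1, 2 and 3 and 9.12, 8.69 and 8.93 in mutant arches 1, 2 and 3. All mutant arches lay below all control arches, mutant arch 2 lowest. The difference of -0.46 (SE 0.12, 95% interval -0.73 to -0.20) corresponds to a 1.38-fold lower signal and narrowly missed the threshold (limma, Benjamini-Hochberg adjusted p = 0.0609). This held for the brightest of its 3 probe sets only, as the others differed by -0.06 and 0.07. Spi1 read 5.48, 5.46 and 5.37 in control arches 1, 2 and 3 and 5.65, 5.49 and 5.49 in mutant arches 1, 2 and 3. The mutant arches lay above the control arches by a small margin, and the difference of 0.11 did not pass (limma, Benjamini-Hochberg adjusted p = 0.538; 95% interval -0.08 to 0.29).

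Cx3cr1, the fractalkine receptor of tissue macrophages and microglia, read 5.76, 5.79 and 5.70 in control arches 1, 2 and 3 and 5.55, 5.48 and 5.68 in mutant arches 1, 2 and 3. The groups did not overlap, but the highest mutant arch came within a few hundredths of the lowest control arch, and the difference of -0.18 did not pass (limma, Benjamini-Hochberg adjusted p = 0.279). Adgre1, which encodes the F4/80 antigen of mouse macrophages, read 7.39, 7.09 and 7.53 in control arches 1, 2 and 3 and 7.17, 7.05 and 7.11 in mutant arches 1, 2 and 3. Here control arch 2 lay among the mutant arches, at a difference of -0.22. Csf1, a ligand of Csf1r that is made largely by mesenchyme and other stromal cells, had means of 6.73 ± 0.15 (SD, n = 3) and 6.53 ± 0.12 (n = 3) and a difference of -0.20, with control arch 1 below mutant arch 3. Csf2rb, the shared beta chain of cytokine receptors for GM-CSF, was highest in mutant arch 1 at 7.12 and lowest in mutant arch 2, and differed by -0.04. Of these 6 lineage genes 5 had a lower mean in the mutant arches, 2 of them without overlap of the groups. Over all genes the shares were 44.7% lower and 11.9% lower without overlap.

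The group of genes mostly shared among leukocytes, to which the microglial marker gene Aif1 was also assigned, gave 1 of the calls. Ptprc, the phosphatase CD45 on the surface of leukocytes, read 6.18, 6.14 and 6.41 in control arches 1, 2 and 3 and 5.91, 5.65 and 5.80 in mutant arches 1, 2 and 3. All mutant arches lay below all control arches. It fell by 0.46 on the log2 scale (SE 0.10, 1.37-fold; limma, Benjamini-Hochberg adjusted p = 0.0406). Its other probe set, below the 25th percentile of the arrays in both groups with means of 3.54 and 3.67, differed by 0.12 the other way. Leaving out any one array except mutant arch 1 made Ptprc miss the threshold, at adjusted p-values between 0.0644 and 0.168 (limma, Benjamini-Hochberg).

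Laptm5, a lysosomal membrane protein of blood cells, read 7.999, 7.78 and 8.19 in control arches 1, 2 and 3 and 7.70, 7.44 and 7.59 in mutant arches 1, 2 and 3. The groups did not overlap, yet the difference of -0.41 did not pass (limma, Benjamini-Hochberg adjusted p = 0.0913), and its 5 probe sets ran from -0.41 to 0.38. Cd52, a small GPI-anchored surface glycoprotein, read 5.74, 5.78 and 6.68 in control arches 1, 2 and 3 and 5.74, 5.75 and 5.41 in mutant arches 1, 2 and 3. Only control arch 3 stood out, and the other 5 arches lay between 5.41 and 5.78. Aif1, which encodes the calcium-binding microglial marker Iba1, showed the same picture with 5.04, 5.14 and 5.82 in control arches 1, 2 and 3 and 5.28, 4.88 and 4.88 in mutant arches 1, 2 and 3. The tetraspanin gene Cd53 and the actin regulator gene Coro1a were also highest in control arch 3, at 6.08 and 8.41, and their differences were -0.38 and -0.10. In all 6 genes of this group, Aif1 included, control arch 3 was the highest array, at a mean of 0.56 above their 6-array means.

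The scavenger genes held the largest difference of the list. Mrc1, the mannose receptor CD206 of perivascular and yolk sac-derived macrophages, read 6.21, 6.65 and 7.15 in control arches 1, 2 and 3 and 5.90, 5.61 and 5.91 in mutant arches 1, 2 and 3. The mutant arches lay close together and below every control arch, while the control arches spread over nearly 1 log2 unit. The difference of -0.87 (SE 0.21, 1.82-fold; 95% interval -1.34 to -0.39) missed the threshold by little (limma, Benjamini-Hochberg adjusted p = 0.0511). It was -0.63 without control arch 3 and passed at -1.10 without control arch 1 (limma, Benjamini-Hochberg adjusted p = 0.0151). Stab1, a scavenger receptor shared by macrophages and sinusoidal endothelium, read 7.14, 6.95 and 7.16 in control arches 1, 2 and 3 and 6.83, 6.83 and 6.73 in mutant arches 1, 2 and 3. Its groups did not overlap at a difference of -0.28 (limma, Benjamini-Hochberg adjusted p = 0.111).

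F13a1, the A subunit of coagulation factor XIII, read 7.68, 7.83 and 7.78 in control arches 1, 2 and 3 and 7.61, 7.58 and 7.18 in mutant arches 1, 2 and 3. It too had groups without overlap, with mutant arch 3 lowest and a difference of -0.31. Pf4, platelet factor 4, read 9.05, 8.66 and 9.73 in control arches 1, 2 and 3 and 9.02, 8.44 and 8.70 in mutant arches 1, 2 and 3. Control arch 3 was highest and mutant arch 1 lay level with control arch 1, so that the difference of -0.43 came with an SE of 0.25. Cd163, the haemoglobin scavenger receptor, and Timd4, a receptor for phosphatidylserine on dying cells, lay below the 25th percentile on all 6 arrays (3.15 to 3.44 and 3.76 to 4.14). Their differences of 0.10 and 0.13 therefore carry little information on either gene.

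Of the immune receptors and their adaptors, Cd14 passed. Cd14, the co-receptor for bacterial lipopolysaccharide, read 6.31, 6.14 and 6.29 in control arches 1, 2 and 3 and 5.81, 5.90 and 5.92 in mutant arches 1, 2 and 3. The arches of each group lay within 0.2 of each other and the groups did not overlap. It fell by 0.37 on the log2 scale (SE 0.08, 1.30-fold; limma, Benjamini-Hochberg adjusted p = 0.0327), with little dependence on control arch 3, without which the difference was -0.35. It missed the threshold when any one array other than control arch 2 was left out, at adjusted p-values between 0.0651 and 0.117 (limma, Benjamini-Hochberg).

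Tyrobp, the adaptor DAP12 that carries the signals of Trem2 and related receptors, gave a contrasting picture with 6.74, 7.39 and 7.99 in control arches 1, 2 and 3 and 7.42, 7.23 and 7.15 in mutant arches 1, 2 and 3. Control arches 1 and 3 were the lowest and the highest of all arrays, and the mutant arches fell between them. The difference was -0.10 (95% interval -0.70 to 0.49) and turned to 0.20 without control arch 3. The adaptor gene Fcer1g, the common gamma chain of Fc receptors, was likewise highest in control arch 3 at 7.57, while the other 5 arches read 6.85 to 7.19. Fcgr3, a low-affinity IgG receptor, read 6.36, 6.24 and 6.78 in control arches 1, 2 and 3 and 6.36, 6.00 and 6.13 in mutant arches 1, 2 and 3. Its groups overlapped at a difference of -0.29.

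Fcgr1, the high-affinity IgG receptor, read 5.56, 5.49 and 5.71 in control arches 1, 2 and 3 and 5.75, 5.41 and 5.79 in mutant arches 1, 2 and 3. The arches were mixed, at a difference of 0.07, and its dimmer probe set differed by -0.37. Trem2, a lipid-sensing receptor of macrophages, and Ly86, the partner of an orphan Toll-like receptor on leukocytes, differed by -0.12 and -0.20 with overlapping groups. Of the 7 genes in this group 6 had a lower mean in the mutant arches and 1 passed, where 44.7% and 5.53% of all genes did.

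The 3 chains of complement C1q, which macrophages make and which tags dying cells for removal, did not read alike. C1qa read 6.63, 6.77 and 7.22 in control arches 1, 2 and 3 and 6.52, 6.23 and 6.37 in mutant arches 1, 2 and 3. Control arch 3 was highest, the groups did not overlap, and the difference of -0.50 (SE 0.15) did not pass (limma, Benjamini-Hochberg adjusted p = 0.111). C1qc read 5.49, 5.76 and 6.34 in control arches 1, 2 and 3 and 5.93, 5.71 and 5.49 in mutant arches 1, 2 and 3. Mutant arch 1 lay above control arches 1 and 2, at a difference of -0.15. C1qb read 7.21, 6.85 and 7.16 in control arches 1, 2 and 3 and 7.10, 7.01 and 6.82 in mutant arches 1, 2 and 3. This brightest of its 3 probe sets differed by -0.10, whereas the other 2 differed by -0.44 and -0.79, the last without overlap of the groups.

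The lysosomal, killing and oxidase genes were all lower on average in the mutant arches, and none of the 7 passed in limma, with 2 at an unadjusted p of 0.05. Cyba, the p22phox subunit of the NADPH oxidase, which is also made outside leukocytes, read 8.37, 8.54 and 8.95 in control arches 1, 2 and 3 and 8.27, 8.11 and 8.12 in mutant arches 1, 2 and 3. Its groups did not overlap, at a difference of -0.45 (limma, Benjamini-Hochberg adjusted p = 0.119). Cybb, the leukocyte subunit gp91phox of the same enzyme, read 4.68 to 5.08 over the 6 arrays with a difference of -0.04. The 2 subunits thus had intervals of -0.77 to -0.13 and -0.32 to 0.24.

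Ctss, the lysosomal protease cathepsin S, read 7.97, 7.90 and 8.32 in control arches 1, 2 and 3 and 8.01, 7.27 and 7.58 in mutant arches 1, 2 and 3. Mutant arch 1 lay among the control arches and mutant arch 2 well below the rest, at a difference of -0.44. Lyz2, lysozyme of myeloid cells, read 6.65, 6.99 and 7.52 in control arches 1, 2 and 3 and 7.25, 6.86 and 6.91 in mutant arches 1, 2 and 3. Control arches 1 and 3 were again the extremes, and the difference of -0.04 turned to 0.19 without control arch 3. Cd68, a lysosomal glycoprotein, Mpeg1, the pore-forming perforin-2, and Lgals3, galectin-3, differed by -0.15, -0.29 and -0.18 with overlapping groups, and all 3 were highest in control arch 3.

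**Figure D3:**
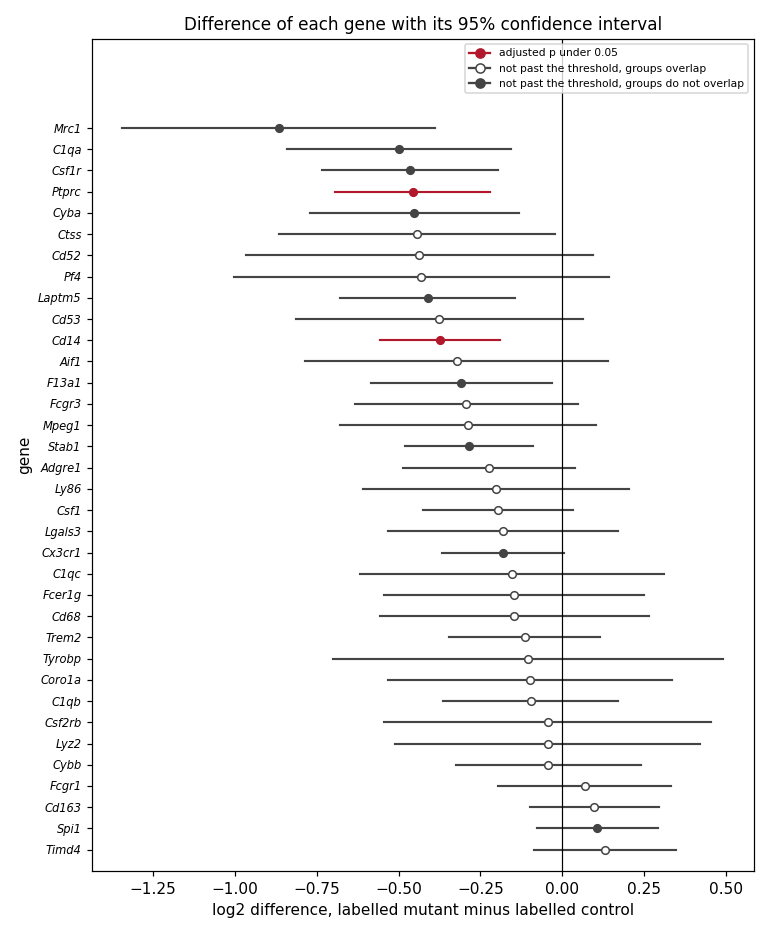
Log2 difference between mutant and control arches (horizontal axis) with its 95% confidence interval for each of the 35 genes (vertical axis, ordered by size), from limma. Cd14 and Ptprc, in red, passed the threshold; filled symbols mark genes whose groups did not overlap, and the intervals of Tyrobp (-0.70 to 0.49) and Csf2rb (-0.55 to 0.46) reach far to both sides of 0.

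The 8 genes whose sign turned without control arch 3 had differences of -0.15 to -0.04 with all 6 arrays and of 0.0005 (Cybb) to 0.20 (Tyrobp) without that array. The 10 genes lower without overlap ran from -0.87 (Mrc1) to -0.18 (Cx3cr1) with all arrays and from -0.63 (Mrc1) to -0.20 (Cx3cr1, the rounded -0.205) without it. Both sets were picked from these same values. Genes without overlap keep their sign whichever array is left out, so the contrast in sign follows from the choice of the sets.

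**Figure D4:**
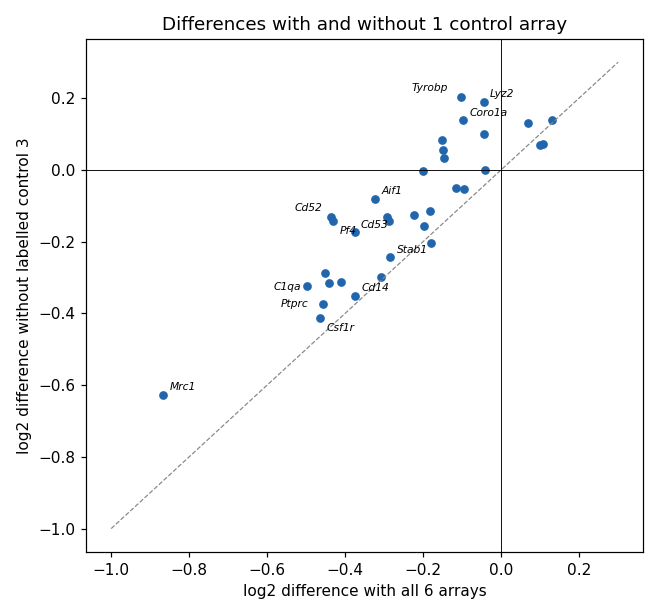
Log2 difference of each of the 35 genes with all 6 arrays (horizontal axis) and without control 3 (vertical axis), with equality as a dashed line. Most points lie above the line, 8 genes cross from below to above 0, and Mrc1 moves from -0.87 to -0.63.

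Further genes of the same cells followed the list only in part. Of 40 other macrophage genes measured of 45 listed, 22 had a lower and 18 a higher mean in the mutant arches. Over all genes 44.7% read lower. At an unadjusted p of 0.05 in limma there were 10 of the 40, 5 of them lower. Groups did not overlap for 6 lower and 4 higher genes. The median difference was -0.03, 1 fell and 0 rose. The gene that fell was Sall1 (8.40 ± 0.24 against 6.84 ± 0.25; SD, n = 3 each; limma, Benjamini-Hochberg adjusted p = 0.00089), a regulator of microglia that is also expressed in embryonic mesenchyme. Siglec1, the sialoadhesin of macrophages, had the next largest moderated t, at a difference of 0.37 that did not pass. Of 14 genes of the Csf1 receptor pathway and other haematopoietic cytokines, Syk fell by 0.52, Kit rose by 0.65 and 12 did not pass, with a median of 0.00. Syk is a kinase downstream of Tyrobp and Fcer1g, and Kit is a receptor of progenitors, mast cells and crest-derived melanoblasts.

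Of 22 complement and scavenging genes 2 fell and 0 rose, with a median of 0.00. They were Tyro3 (-0.58) and Gas6 (-0.63), a receptor and its ligand in the uptake of dying cells that other cell types also make. Of 19 chemokine genes 3 fell and 0 rose, with a median of 0.06: the chemokine gene Ccl12 (-0.65), Cxcr4 (-0.49) and the atypical receptor gene Ackr3 (-0.88). Ccl12 lay below the 25th percentile on 4 arrays, so its difference is near the low end of the scale. Of 17 lysosomal genes 14 had a lower mean in the mutant arches, the median was -0.22, and Ctsh, cathepsin H, fell by 0.91, while Psap, the precursor of lysosomal saposins, differed by -0.25 and did not pass. Of 10 antigen presentation genes 2 fell, the class I gene H2-D1 (-0.72) and the peptide transporter gene Tap1 (-0.54), with a median of -0.35. Control arch 3 was the highest array for 12 of the 17 lysosomal and 7 of the 10 antigen presentation genes.

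Of 4 lists of other blood cells, the platelet and erythroid lists had their highest mean in control arch 3 and their lowest in mutant arch 2, and the granulocyte and lymphoid lists varied less. Over 13 megakaryocyte and platelet genes, control arch 3 lay 0.40 above the 6-array mean and mutant arch 2 lay at -0.31, while control arches 1 and 2 lay at -0.02 and -0.08. Over 12 erythroid genes control arch 3 lay at 0.37 and mutant arch 2 at -0.26, with 10 of the 12 lowest in mutant arch 2. Ppbp, a platelet chemokine gene, read 7.20, 7.49 and 8.98 in control arches 1, 2 and 3 and 7.89, 6.21 and 6.93 in the mutant arches. 1 erythroid gene, the anion exchanger gene Slc4a1, fell by 0.70, and the haem synthesis gene Alas2 differed by -0.61 without passing. No megakaryocyte gene passed in limma, with 1 at an unadjusted p of 0.05; the largest moderated t belonged to Vwf, at a difference of -0.49. Only 1 of the 12 erythroid and 0 of the 13 megakaryocyte genes lay below the 25th percentile on all arrays. In the granulocyte and lymphoid lists 5 of 17 genes each did, which limits how far those lists could vary. Over the 17 neutrophil, mast cell and granulocyte genes, control arch 3 lay at 0.08 and mutant arch 2 at -0.01, with mutant arch 1 highest at 0.09 and mutant arch 3 lowest at -0.14. Over the 17 lymphoid genes, control arch 3 lay at 0.07 and mutant arch 2 at 0.01, with mutant arch 3 lowest at -0.11. The part of blood content in the leukocyte values was not tested.

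Vessel genes varied little between arches. Over 20 endothelial genes the array means ran from -0.07 to 0.10, with control arch 2 highest, the median difference was -0.07, and 0 passed in limma, with 1 at an unadjusted p of 0.05. Prox1 and Erg, with the largest moderated t, differed by -0.25 and -0.19. Of 17 neutrophil, mast cell and granulocyte genes 0 passed in limma and 4 did at an unadjusted p of 0.05, with a median of 0.03; Cpa3 and S100a8 differed by -0.23 and -0.39. Of 17 lymphoid genes 2 fell, with a median of 0.08: Thy1 (-1.33), which neurons and mesenchyme also express, and the recombinase gene Rag1 (-0.81). Rag1 was dim, with means of 5.06 in control and 4.25 in mutant arches, and below the 25th percentile on 2 arrays.

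Mesenchymal and epithelial lists held calls in both directions. Of 12 mesenchymal genes 4 fell and 1 rose, with a median of -0.30, the largest moderated t belonging to Col3a1 (-0.64), Msx1 (1.15), Pdgfra (-0.63) and Col1a2 (-0.78). Their array means had the same order as those of the leukocyte genes at both ends. Control arch 3 was highest at 0.21, and mutant arches 2 and 3 were lowest at -0.15 and -0.18. Control arches 1 and 2 and mutant arch 1 lay at 0.05, 0.06 and 0.0007. Of 9 epithelial genes Krt8 rose by 0.52 and 8 did not pass, among them Krt18 at 0.32, and their array means ran from -0.32 in control arch 1 to 0.39 in control arch 3. Over the 13 related lists 20 of 222 genes were called, 17 of them lower, or 9.01%. Over all genes 5.53% were called (4.30% lower, 1.23% higher). The mesenchymal list had the largest called share, at 41.7%.

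**Figure D5:**
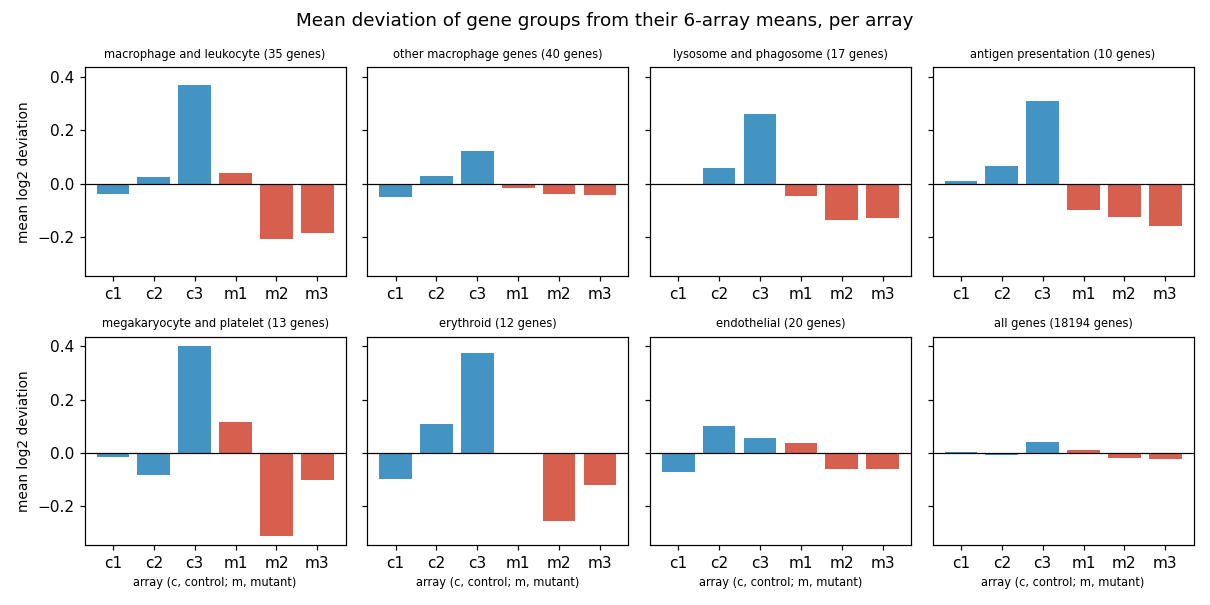
Mean log2 deviation from the 6-array mean (vertical axis) on each array (horizontal axis; blue bars control, red bars mutant) for the 35 genes, 6 related gene lists and all genes. Control 3 is the highest bar for the leukocyte (0.37), platelet (0.40) and erythroid (0.37) genes, while the endothelial bars stay between -0.07 and 0.10. The mesenchymal and epithelial lists, also highest in control 3 (0.21 and 0.39), are not drawn.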

How the data were processed

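Gene expression was measured on 1-colour arrays from total RNA of 6 arches, 3 per genotype label. The deposited values are log2 signals per probe set, normalized by the authors to 1 distribution. The log2 scale was inferred from their range of 2.63 to 14.68, and the sources used here do not give the background correction, probe summary or software. Normalization to 1 distribution hides any change in total signal, and the number of arrays limits precision. Of 45101 probe sets 34958 had 1 gene symbol in the platform annotation of the array, 932 had several and 9211 had none; the last 2 kinds were left out. Detection calls were not used here.

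The model of limma 3.58.1 under R 4.3.3 (lmFit, eBayes) had the group as its only term and ran over all 18194 genes. Tests were two-sided, p-values were adjusted over all genes by Benjamini-Hochberg, and the threshold was 0.05. No filter on low signals was applied, so all 35 genes entered the fit. The labels call the arrays biological replicates. The members and lists were chosen with earlier results of these data known, and the reading of control arch 3 was chosen after its values were seen. Genes with values on every array are those past the threshold, the 12 with the largest absolute moderated t and a set of defining macrophage markers; Tyrobp, Lyz2, Cd52 and Pf4 were added after their values were seen. From each related list the genes past the threshold are named (at most 4), or the 2 with the largest moderated t. On simulated arrays of 18194 genes the fit recovered 72% of genes shifted by 0.5 log2 units and 100% of those shifted by 1, with 7.03% of calls false. The simulated noise was independent for each gene and array. These rates therefore do not cover deviations that many genes share on an array, as seen in control arch 3. Alternatives were a replicate block, other normalizations, a floor or filter on low signals, the mean of probe sets, trend and robust settings, leaving out each array and, chosen after seeing the data, a fit over all probe sets.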

Additional observations from a re-analysis of the deposited data

How the results depend on the processing

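The median difference of the 35 genes stayed below 0 under every alternative tried, between -0.34 and -0.13, but which genes passed did not stay the same. Against 2 genes (Cd14 and Ptprc), limma called 0 with a replicate block and 0 with signals floored at the 20th percentile (10 and 9 at an unadjusted p of 0.05), and 1, Cd14, with the mean of probe sets. The fit over all probe sets called 0 of the 56 probe sets of these genes (12, of 10 genes and 1 of them higher, at an unadjusted p of 0.05). Quantile normalization and median centring each called Mrc1 and Ptprc, and trend and robust settings called Csf1r and Ptprc. Leaving out each array in turn gave 0 to 2 genes. Over all genes the calls numbered 657 with the replicate block, 329 with the floor and 435 to 1021 with 1 array left out, against 1007; in the related lists they numbered 12, 4 and 8 to 21, against 20. Same-numbered arrays of the 2 groups did not deviate together (correlations of -0.21, -0.12 and -0.07 over all genes), and control array 1 correlated best with mutant array 2. Whether same-numbered arrays shared a litter or a batch was not tested.

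In the fit over all probe sets, 11 of the 12 genes with more than 1 probe set had probe sets of both signs. Under the alternatives that give 1 value per gene, the sign held for 25 of the 35 genes. It turned for Lyz2 (0.0199 with quantile normalization, 0.0283 with median centring), Csf2rb (0.0204 and 0.028, and 0.0248 with the mean of probe sets), Cybb (0.03 with median centring), Fcgr1 (-0.15) and Trem2 (0.0027) with the mean of probe sets. With 1 array left out the differences ran from -0.34 to 0.033 for Cd68, -0.42 to 0.20 for Tyrobp, -0.30 to 0.056 for Fcer1g, -0.25 to 0.19 for Lyz2, -0.34 to 0.0838 for C1qc, -0.26 to 0.14 for Coro1a, -0.30 to 0.15 for Csf2rb, -0.17 to 0.0313 for Cybb and -0.001 to 0.19 for Fcgr1. Apart from the array left out and the probe sets averaged, the cause was not tested. Cd163 and Timd4 lie too near the low end of the scale for a difference to be read.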
